A study of Mus musculus with 6 samples.

Results

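Il33, the gene of the alarmin cytokine interleukin 33, is 1 of the 149 genes in the authors' table of genes that differed between 2 groups of mouse hearts. It was chosen by its symbol, and all 6 libraries of the table were used. Both groups were male C57BL/6 mice, labelled wild type, in which the left anterior descending coronary artery was closed by a ligature for 45 min and reopened for 24 h. The ischaemia-reperfusion group (IR, n = 3 libraries) had this procedure and no other treatment named in the labels. The group preconditioned with trimethylamine N-oxide (TMAO+IR, n = 3 libraries) also drank water with 0.12% TMAO, a product of gut bacterial and liver metabolism, for 4 weeks beforehand and during the procedure. RNA came from the reperfused region of the heart. Hearts without ischaemia were not analysed here, so every value below describes injured tissue. The libraries held between 18389979 and 22423639 fragments, of which the 149 genes took 0.33% to 0.505% in IR and 0.678% to 1.08% in TMAO+IR. The labels do not tie the libraries to named animals, so the spread between them may be technical. The labelled tissue could not be checked with the 8 cardiomyocyte markers chosen here, of which none is in the table. The table does hold Myh7, a cardiac myosin heavy chain gene, which differs between the groups. In bulk tissue, fewer cells of a type and less RNA per cell cannot be told apart.

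IL-33 belongs to the interleukin 1 family. It is kept in the nucleus, bound to chromatin, in endothelial cells, fibroblasts and epithelia, and is set free when such cells are damaged, which is why it is called an alarmin. Released IL-33 binds the receptor ST2, encoded by Il1rl1, together with the shared co-receptor encoded by Il1rap, and signals through MyD88 to NF-kappaB and MAP kinases. Mast cells, group 2 innate lymphoid cells, regulatory T cells and eosinophils carry the receptor, and in the heart a soluble form of ST2 acts as a decoy.

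Il33 (ENSMUSG00000024810) lies on the plus strand of chromosome 19 at 29925114 to 29960718 of GRCm38. GENCODE M21 gives it 5 transcripts. The 2 long ones, Il33-202 (2537 bp) and Il33-201 (2544 bp), have 8 exons each and differ in their first exon and promoter. The other 3 are short models, Il33-205 (725 bp), Il33-204 (377 bp) and Il33-203 (370 bp). No other annotated gene overlaps Il33 on either strand, so its counts have no overlapping gene to share reads with. The RefSeq promoter table (build GRCm38.p6) holds both promoters, whose transcript starts lie 20677 bases apart. They are shown because the deposited table gives 1 value per gene and does not say which of them the Il33 transcripts came from. The first (chr19:29924863-29925112, plus strand) ends at the base before the RefSeq start next to the first exon of Il33-202, and the second (chr19:29945540-29945789, plus strand) ends at the base before the first exon of Il33-201. Capitals mark every match to the 9 motifs named after the sequences.
Il33 promoter 1: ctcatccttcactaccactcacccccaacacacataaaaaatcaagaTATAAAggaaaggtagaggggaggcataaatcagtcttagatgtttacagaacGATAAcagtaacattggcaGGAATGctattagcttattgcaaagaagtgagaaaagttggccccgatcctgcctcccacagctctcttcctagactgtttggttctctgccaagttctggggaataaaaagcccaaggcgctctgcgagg
Il33 promoter 2: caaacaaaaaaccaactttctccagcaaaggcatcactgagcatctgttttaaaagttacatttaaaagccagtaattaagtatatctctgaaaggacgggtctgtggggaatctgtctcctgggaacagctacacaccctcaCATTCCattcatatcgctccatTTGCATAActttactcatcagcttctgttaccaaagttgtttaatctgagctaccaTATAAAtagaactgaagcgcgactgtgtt

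Both strands of these 250 bases were searched for TATAAA (the core of a TATA box), TGANTCA (AP-1), TTGCNNAA (C/EBP), GATAA (bound by factors of the GATA family), TTCNNNGAA (STAT), GCGTG (aryl hydrocarbon receptor), CATTCC (TEAD), and the interferon response and NF-kappaB consensus motifs. The matches do not overlap each other. Promoter 2 holds TATAAA at 29 to 24 bases before the start, a letter string present in 12.4% of the 32817 RefSeq promoter windows of this length. It also holds the C/EBP string as TTGCATAA at 85 to 78 bases before the start (9.57% of windows) and CATTCC at 107 to 102 (12.6%). Promoter 1 holds TATAAA farther from the start, at 203 to 198 bases before it, GATAA at 150 to 146 (22.6% of windows) and CATTCC on the minus strand at 131 to 126. The letters for AP-1, STAT, interferon response, the aryl hydrocarbon receptor and NF-kappaB were found in neither window. Such matches describe letters and not bound sites. Promoter 1 has 45.2% GC and promoter 2 has 39.6%, against a median of 52.4% over all windows.

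Il33 was more abundant in each TMAO+IR library than in any IR library. The fragment counts were 188, 370 and 192 in IR replicates 1, 2 and 3, and 499, 671 and 484 in TMAO+IR replicates 1, 2 and 3. Scaled to counts per 1000000 fragments of the library (CPM), IR replicate 1 had 9.09 (95% exact Poisson interval 7.84 to 10.5), IR replicate 2 had 16.8 (15.2 to 18.6) and IR replicate 3 had 8.56 (7.39 to 9.86). TMAO+IR replicate 1 had 27.1 (24.8 to 29.6), replicate 2 had 31.2 (28.9 to 33.6) and replicate 3 had 23.2 (21.2 to 25.4). These intervals cover counting error alone. IR replicates 1 and 3 were close together with overlapping intervals, and IR replicate 2 stood between them and the TMAO+IR libraries. In TMAO+IR the interval of replicate 1 overlapped those of replicates 2 and 3, while the intervals of replicates 2 and 3 did not overlap.

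**Figure D1:**
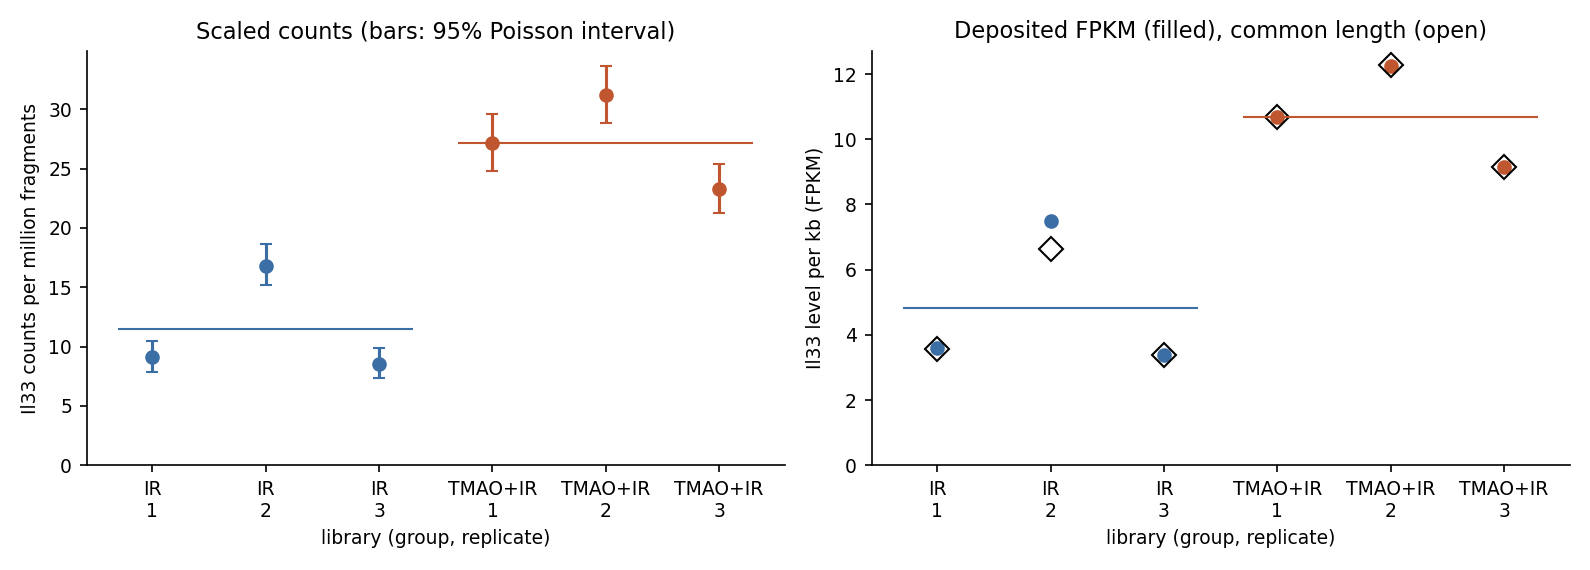
Il33 in each of the 6 libraries. The left panel shows CPM with 95% Poisson intervals, and the right panel shows the deposited FPKM as filled points beside the level per kb at a common length as open diamonds. Horizontal lines are group means. All 3 TMAO+IR libraries lie above the 3 IR libraries, IR replicate 2 is the highest of its group, and it alone has a filled point clearly off its diamond.

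The group means were 11.5 ± 4.63 CPM in IR and 27.2 ± 3.96 in TMAO+IR (SD, n = 3 each). The spread in IR was wide against its mean, with a coefficient of variation of 40.3%, against 14.6% in TMAO+IR. Counting alone would give an SD of about 0.727 CPM in IR and 1.16 in TMAO+IR, so most of the spread in both groups lay between libraries and not in the depth. The lowest TMAO+IR library stood 1.38-fold above the highest IR library, and the highest TMAO+IR library 3.64-fold above the lowest IR library. The groups did not overlap, as in 80.5% of the listed genes, which were higher in TMAO+IR without overlap. The table was selected on this contrast, so nothing is read from that share.

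An edgeR quasi-likelihood fit over the 149 genes put Il33 at 2.36-fold higher in TMAO+IR, a log2 fold change of 1.24 ± 0.37 (SE). In this fit the spread of each gene was replaced by the trend over all 149, so the SE carries little of the spread of Il33 itself. No p-value was taken from the fit, because Il33 entered the table through the same difference. The authors' deposited table, which put it there, gives Il33 a log2 fold change of 1.15 between mean FPKM, a p-value of 8.15e-06 and an FDR of 0.00207. All listed genes differ at least 2-fold there, with FDR up to 0.0487, and 81.9% of them were higher in TMAO+IR. Il33 ranked 32 of 149 by FDR, 84 of 149 by log2 fold change from the highest down, and 51 and 48 of 149 by mean FPKM in IR and TMAO+IR in the authors' deposited table.

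The Il33 difference was larger in counts than in FPKM because the length behind the deposited FPKM was not the same in every library. FPKM divides a count by the library size and by the transcript length, so a count and its FPKM together give the length that was used. For 5 libraries this implied length was 2525 to 2542 bp, next to the 2 long transcripts. The lowest of these, 2525 bp in IR replicate 1 (2522 to 2529 bp with the rounding of FPKM to 2 decimals), lay slightly below both. For IR replicate 2 the implied length was 2247 bp (2245 to 2248 bp with the same rounding), 11.6% below the median of the others. If this shortfall came from 1 short model, 5.23% of its 370 fragments (19 fragments) on Il33-205, or 2.28% (8 fragments) on Il33-204, would give it. Which transcripts the authors' quantification used was not tested. Listed genes with several annotated transcripts and at least 1 FPKM in every library numbered 74, Il33 among them. In 11 of these, Il33 included, the length in IR replicate 2 was more than 5% below the gene's median. In 29 of the 74 such a shortfall occurred in at least 1 of the 6 libraries, so it was not confined to IR replicate 2.

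**Figure D2:**
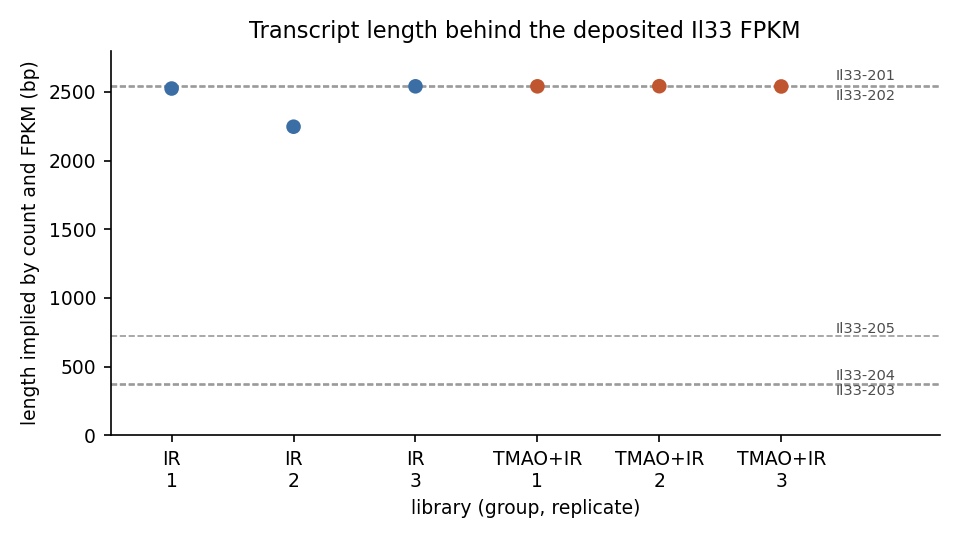
Transcript length in bp implied by the Il33 count, FPKM and library size in each library. Dashed lines are the annotated lengths of the 5 Il33 transcripts. IR replicate 2 sits at 2247 bp. The points of the other 5 libraries sit at or near the long transcripts (2525 to 2542 bp), with IR replicate 1 the lowest of them.

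The deposited FPKM were 3.6, 7.49 and 3.37 in IR replicates 1, 2 and 3, and 10.7, 12.3 and 9.15 in TMAO+IR replicates 1, 2 and 3. Their means were 4.82 ± 2.32 and 10.7 ± 1.56 FPKM (SD, n = 3 each), a 2.22-fold difference. With 1 common length of 2540 bp, IR replicate 2 came to 6.62 per kb in place of 7.49, and the ratio of means to 2.36-fold. The 2-fold limit of the table was close for Il33. Without IR replicate 1 or IR replicate 3 the ratio of mean FPKM was 1.97-fold and 1.93-fold, and without IR replicate 2 it was 3.07-fold. Fitted on counts, leaving out 1 library gave between 2.10-fold (without IR replicate 3) and 3.08-fold (without IR replicate 2). TMM scaling within the listed genes, which centres a list chosen for its change, gave a log2 fold change of 0.23.

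**Figure D3:**
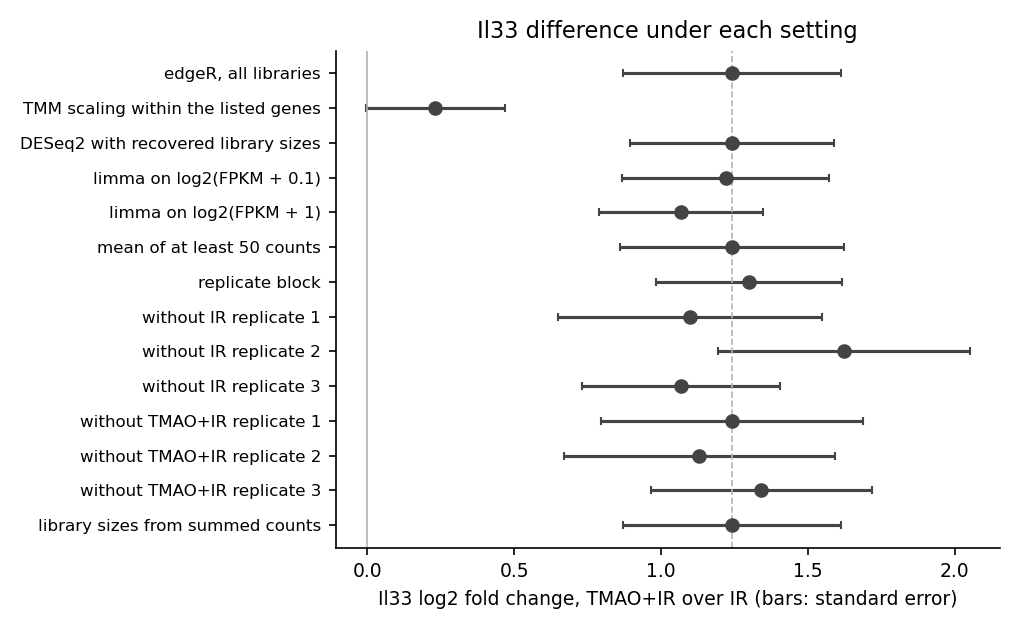
Log2 fold change of Il33, TMAO+IR over IR, under each fit, with its standard error as a bar. The dashed line marks 1.24, the value from edgeR with all libraries. The fits that leave out 1 library run from 1.07 to 1.62, and TMM scaling within the listed genes stands apart at 0.23.

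The intermediate Il33 level of IR replicate 2 was shared with other listed genes. This library had 1.91 times the mean of the other 2 IR libraries for Il33. It was the highest IR library in 77 of the 100 genes that were higher in TMAO+IR and had a mean of at least 50 counts, with a median ratio of 1.41. In 9 of these 100 genes, Il33 included, the ratio was as high as that of Il33 or higher. TMAO+IR replicate 2, the highest library for Il33, was the highest of its group in 54 of the 100. The part that any property of these libraries has in the Il33 values was not tested.

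Il33 had the profile across the 6 libraries most like that of Tnc, which encodes tenascin C, a matrix glycoprotein laid down after injury that can also act as a danger signal. Likeness was the root mean square difference between log2 profiles centred on each gene's own mean, over all 6 libraries, so a smaller value is more alike. It was 0.095 for Tnc, against a median of 0.333 over the 116 other genes with a mean of at least 50 counts. Tnc was picked as the smallest value, and the median takes in genes lower in TMAO+IR, so nothing is read from the gap. Another gene was nearest without IR replicate 1 (Sema6d), without IR replicate 3 (Samsn1) and without TMAO+IR replicate 1 (Nlrc5). Tnc had 8.61, 16.5 and 8.43 CPM in IR replicates 1, 2 and 3 and 28.0, 34.8 and 21.03 in TMAO+IR. Library by library these stand close to the Il33 values, with IR replicate 2 at 1.94 times the mean of the other IR libraries. Per length the genes differ, since Tnc had 1.59 ± 0.635 FPKM in IR and 3.93 ± 0.97 in TMAO+IR.

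Next were Nlrc5 (0.114), a transactivator of MHC class I genes, Thbs1 (0.135), the matricellular protein thrombospondin 1, and Cxcl5 (0.143), a neutrophil chemoattractant. Nr4a3 (0.147), an orphan nuclear receptor induced early after stimulation, and Serpina3f (0.154), a serine protease inhibitor from a cluster of close relatives whose counts are therefore uncertain, followed. Nlrc5 was at 7.98, 12.9 and 6.33 CPM in IR replicates 1, 2 and 3, and at 25.3, 27.1 and 19.5 in TMAO+IR. In all 6 genes IR replicate 2 was the highest IR library and TMAO+IR replicate 3 the lowest TMAO+IR library, as in Il33. The 6 were chosen for likeness over these same libraries, so a shared order is built into the choice. The 6 are not a stable set. On the FPKM scale Nlrc5 was no longer among the nearest 6, and Fgl2 was. Without IR replicate 1, 1 of the 6 (Tnc) was still among the nearest 6. Without IR replicate 3 or TMAO+IR replicate 3, 3 of the 6 were, and the other leave-one-out sets kept 4 or 5. When each group was centred on its own mean, so that the difference between groups did not count, the nearest were Nlrc5 (0.0864), Tnc (0.0896) and Runx1 (0.111), a transcription factor of blood and injured heart muscle. The listed genes share the group difference by selection, so no p-value is given for any likeness.

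**Figure D4:**
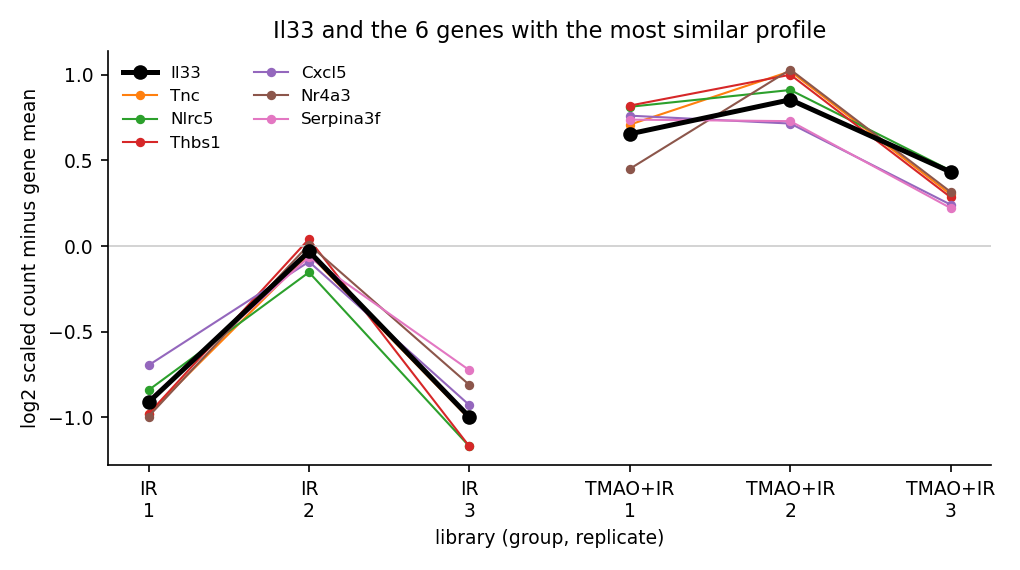
Log2 scaled count minus the gene's mean over the 6 libraries, for Il33 in black and the 6 genes with the smallest root mean square difference to it. Lines join the libraries of a group to make a gene easy to follow and carry no order. The values of IR replicate 2 lie near 0 and those of IR replicates 1 and 3 lie below, as all TMAO+IR values lie above 0.

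Among ligands, Il33 was the 1 listed gene of the 10 interleukin 1 family ligands, a list that also holds Il1a, Il1b and Il18. None of the 11 receptor genes of that family, Il1rl1 and Il1rap among them, and none of the 19 genes for proteases and pore proteins that process or free IL-33 is in the table. Those genes were not analysed here, and their absence does not show equal levels. Of 24 signalling genes downstream of the receptor, 2 were listed and both were higher, Fos and Jun, which encode the AP-1 subunits. Fos went from 51.2 ± 16.5 to 146 ± 52.3 FPKM and Jun from 37.1 ± 7.46 to 90.0 ± 39.0 FPKM. Unlike Il33, neither gene had IR replicate 2 far above both other IR libraries, with 60.2 FPKM for Fos against 61.4 in IR replicate 3 and 42.6 for Jun against 40.2. Across the 6 pathway lists 8 of 113 genes were listed, Il33 among them. All 8 were higher, where 81.9% of the whole table was higher. The deposited p-values and FDR imply about 12721 tested genes, of which 149 were listed. The lists were chosen with earlier results known, so nothing is read from the count.

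Of 26 genes known as targets of IL-33 or of type 2 immunity, 3 were listed. All 3 were higher, where 81.9% of the whole table was, so nothing is read from this count. Il6, a cytokine of acute inflammation, had 23.9, 21.3 and 18.7 FPKM in IR replicates 1, 2 and 3 and 51.4, 49.6 and 43.0 in TMAO+IR. For Il6, IR replicate 2 was at 0.999 times the mean of the other IR libraries in scaled counts, so the profile of Il6 within IR differed from that of Il33. Ptgs2, which encodes the prostaglandin enzyme cyclooxygenase 2, had 5.31, 6.82 and 2.15 FPKM in IR and 12.0, 12.6 and 8.78 in TMAO+IR, with the same order of TMAO+IR libraries as Il33. Chil3, a secreted chitinase-like protein of macrophages and neutrophils, went from 1.10 ± 0.265 to 3.14 ± 1.47 FPKM, with TMAO+IR replicate 2 at 4.83. Of 24 genes for other alarmins and danger signals, Tnc and Hsp90aa1 were listed, and nothing is read from that count either. Hsp90aa1, the inducible cytosolic HSP90 chaperone, went from 32.0 ± 12.1 to 115 ± 58.1 FPKM, with a much wider TMAO+IR range (50.6 to 164 FPKM) than Il33 had (9.15 to 12.3 FPKM).

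The authors' annotation places Il33 with 9 other listed genes in the KEGG pathway of cytokines and their receptors. Of these 10 genes, 9 were higher in TMAO+IR and 1, the cardiotrophin 1 gene Ctf1, was lower, where 81.9% of the whole table was higher. They had a median log2 fold change of 1.21 against 1.17 over the whole table in the authors' deposited table. By mean FPKM in IR, Il33 came after Il6 (21.3 ± 2.59) and Cxcl5 (11.5 ± 3.61) and just ahead of Csf2rb (4.28 ± 1.67), a shared receptor subunit whose near-identical paralogue makes its counts uncertain. The IR libraries of Il33 and Csf2rb overlapped, so that order is within their spread. In TMAO+IR, Csf2rb (11.0 ± 3.82) and Il33 (10.7 ± 1.56) had similar means in FPKM. In scaled counts Csf2rb differed less between groups, with 18.1 ± 4.2 CPM in IR and 30.5 ± 1.68 in TMAO+IR, a 1.68-fold difference against its 2.58-fold difference in FPKM. The lowest of the 10 was Ccr2, the receptor that draws inflammatory monocytes, at 0.34 ± 0.139 FPKM in IR and 1.01 ± 0.324 in TMAO+IR.

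The 10 genes differed in how far IR replicate 2 stood from the other IR libraries. Its ratio to their mean was 2.29 for Lif, a cytokine of the interleukin 6 family, 1.97 for Ccr2, 1.91 for Il33 and 1.80 for Inhba, which encodes the activin A subunit. It was 1.65 for Cxcl5, 1.45 for Csf2rb, 1.38 for the platelet chemokine gene Ppbp and 1.25 for Ctf1. Gdf15, a stress-induced cytokine (1.04), and Il6 (0.999) showed no such elevation. Apart from Il6, Cxcl5 and Csf2rb, these genes had fewer scaled counts than Il33 in IR, so their ratios are less precise.

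**Figure D5:**
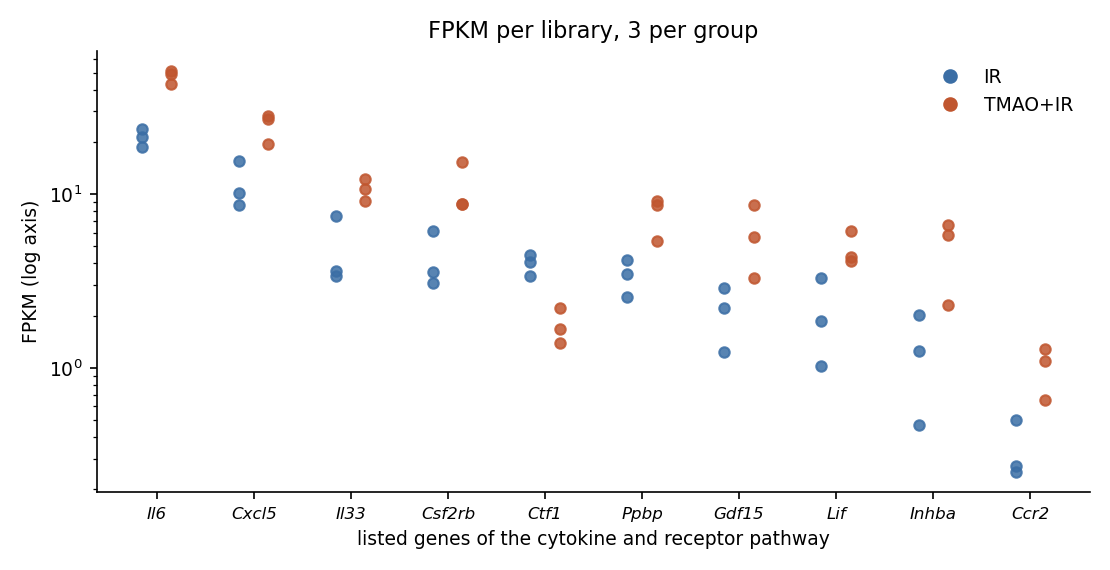
FPKM on a log axis in each library for the 10 listed genes of the cytokine and receptor pathway, ordered by their mean in IR, with 3 IR and 3 TMAO+IR libraries per gene. Il33 follows Il6 and Cxcl5 by IR mean (4.82 FPKM) with IR replicate 2 apart at 7.49, and Ctf1 is the gene with lower TMAO+IR values.

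Il33 also carries the KEGG terms for necroptosis, a form of cell death that breaks the membrane, and for cytosolic DNA sensing. The necroptosis term had 5 listed genes, of which Hsp90aa1, Il33, Jak2 and Cybb were higher and Spata2l lower. Jak2, a kinase of cytokine receptors, went from 8.48 ± 2.42 to 17.9 ± 4.22 FPKM, and Spata2l from 1.99 ± 0.197 to 0.97 ± 0.576. Cybb, the catalytic subunit of the phagocyte oxidase, went from 2.2 ± 0.619 to 4.6 ± 0.499 FPKM, a 2.09-fold difference. In scaled counts Cybb differed less, with 8.81 ± 1.82 CPM in IR and 14.4 ± 0.972 in TMAO+IR, a 1.64-fold difference. The DNA sensing term held Il6, Il33 and Aim2, a sensor of cytosolic DNA, which had 0.173 ± 0.14 FPKM in IR and 0.867 ± 0.257 in TMAO+IR, on a mean of 7 counts in IR. All 3 were higher in TMAO+IR. With 81.9% of the table higher, neither this count nor the 4 of 5 for necroptosis sets the terms apart.

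Of the 98 markers of 12 cell types, 5 were listed and all 5 were higher, in a table that was selected on this difference and of which 81.9% was higher. The marker lists too were chosen with earlier results known. The 5 genes are given beside Il33 as values and do not measure cell numbers. Of 11 endothelial markers, 1 was listed, Ackr1, the chemokine receptor of venular endothelium, with 0.91 to 1.02 CPM in IR and 2.11 to 2.97 in TMAO+IR. The 2 listed of 10 neutrophil markers, Mmp8 and Slfn4, summed to 11.8 to 21.1 CPM in IR and 33.4 to 39.6 in TMAO+IR. The 2 listed of 10 monocyte and macrophage markers, Ccr2 and Chil3, summed to 2.14 to 3.68 CPM in IR and 5.09 to 11.2 in TMAO+IR. Chil3, which neutrophils make too, had 7.43 CPM of the highest sum, that of TMAO+IR replicate 2. In IR the mean counts were low, at 20.7 for Ackr1, 24.0 for Ccr2 and 36.7 for Chil3. No marker was listed for the other 9 cell types, among them fibroblasts, mesothelium, mast cells, group 2 innate lymphoid cells, eosinophils and regulatory T cells, and their levels were not analysed here. The part of any change in cell makeup in the Il33 difference was not tested.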

How the data were processed

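The authors deposited 1 table of 149 selected genes, with whole-number counts per gene and library, FPKM to 2 decimals, group means, the log2 fold change of those means, and a p-value with its FDR, per the file headers. Per the submitters' processing notes the build was GRCm38 and the tools, named without roles, were HISAT2, StringTie 1.3.1, Bowtie2 2.2.8, fastp 0.18.0, edgeR and DESeq2. The test behind the deposited p-values and the annotation release are not given in the sources used here. Columns named T-IR were taken as TMAO+IR, the other group of the titles.

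Library sizes were recovered as count over FPKM and length in 12 genes with 1 transcript in GENCODE M21 and at least 1 FPKM throughout, which differed by at most 0.274%. Counts were fitted with edgeR 4.0.16 (R 4.3.3) without filter or further scaling, and the fold estimates were checked on simulated data. Profiles used log2(CPM + 0.1). Il33, the gene lists and the rules were chosen with earlier results of these data known. Named genes are Il33, its 6 nearest profiles (3 within groups), listed members of the lists, and genes next to Il33 in order. Genes sharing its pathways and the nearest listed gene on its chromosome were added after values were seen. Alternatives were DESeq2 1.42.0, limma 3.58.1 on log2(FPKM + 0.1) and log2(FPKM + 1), TMM, a minimum of 50 counts, the replicate block and leaving out libraries.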

Additional observations from a re-analysis of the deposited data

How the results depend on the processing

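The fitted log2 fold change of Il33 from counts was 1.24. TMM scaling within the listed genes gave 0.23. The remaining planned settings with all libraries gave values from 1.07 (limma on log2(FPKM + 1)) to 1.299 (replicate block), within the replicate SD of 0.407. Leaving out 1 library gave 1.07 to 1.62. The log2 ratio of mean FPKM was 1.15 with all libraries. It ran from 0.95 to 1.62 when 1 library was left out, and was 1.24 with 1 common length. Both kinds of setting for this ratio were chosen after seeing the data. Of the 6 genes nearest to Il33, 5 were shared when groups were centred and 5 on the FPKM scale, and leaving out 1 library, also chosen after seeing the data, shared 1 to 5.

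Deviations from the group means, over 117 genes, correlated at -0.32, 0.34 and -0.076 between libraries with the same number, and 2 of 6 libraries correlated best with their own number. The labels give these libraries only a shared number. With 3 libraries per group and genes selected on the group difference, the correlations cannot tell whether libraries were paired. The fit with the replicate block gave 1.299. Depth limits each Il33 level to its Poisson interval. With 1 common length the log2 ratio of mean FPKM was 1.24, as in the fit on counts. Apart from this and the centring by TMM scaling, the cause of the differences between settings was not tested.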

Other observations

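The listed gene nearest to Il33 in the genome was Cd274, which encodes the checkpoint ligand PD-L1. It lies 0.537 Mb away on chromosome 19, which holds 7 listed genes besides Il33. Cd274 had 2.63, 3.10 and 1.64 FPKM in IR replicates 1, 2 and 3 and 5.90, 5.56 and 5.85 in TMAO+IR. Its TMAO+IR libraries were closer together than those of Il33. Between Il33 and the nearest protein-coding genes, Ranbp6 and Trpd52l3, lie 112140 and 43072 bases, and neither gene is in the table.

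In the authors' annotation Il33 carries 22 biological process terms, and 12 of them were held by no other listed gene, among them those for interleukin 4, interleukin 5 and interleukin 13 production. Genes at the level of Il33 were Mmp8, the neutrophil collagenase, above it in IR (4.87 ± 1.68 FPKM) and Ifi204, an interferon-induced DNA sensor, below it (4.79 ± 0.771). With 1 common length the IR mean of Il33 was 4.52 per kb, below that of Ifi204, so this order depends on the length used. In TMAO+IR, Cyp1a1 (10.9 ± 2.07 FPKM) stood above Il33 and Gvin1 (10.2 ± 2.76), an interferon-induced GTPase, below, all within their spread. By FDR in the authors' deposited table, Il33 stood between Rps6ka3 (0.00194, shared with other genes) and Jmjd1c (0.00208).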
